A study of Mus musculus with 18 samples.

Results

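The 9 genes described here are markers of homeostatic microglia whose products sit at the cell surface or are secreted: Tmem119, Siglech, Fcrls, Selplg, Slc2a5, Cx3cr1, Olfml3, Crybb1 and Sparc. Each was taken from the probe sets annotated to that symbol alone, and where a gene had several, the brightest over the 18 arrays was used. All 9 were found among the 22180 genes tested, with 10 of the 23521 probe sets that carry a single symbol; the second probe set of Selplg was the extra one. The arrays were hybridised with RNA of microglia from untreated C57Bl/6 mice kept under specific pathogen-free conditions. Cells had been enriched on Percoll and sorted for CD45 and CD11b on their surface and for absence of Gr1. The 6 groups of 3 arrays were cortex and corpus callosum each on postnatal days 3 (P3) and 7 (P7) and in adulthood. The labels give neither the age of the adults, nor sex, nor the number of animals behind an array, so the p-values measure only the spread between these samples, which may in part be technical. The title of the series is about the contribution of microglia to myelin formation and to the upkeep of oligodendrocytes.

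Microglia settle in the brain before birth and take on their mature surface phenotype over the first postnatal weeks. In mice the mature state depends on TGF-beta signalling and on contact with brain tissue, and the genes described here are among those lost when microglia are cultured or take on disease-associated states. Cx3cr1 encodes the receptor for the neuronal chemokine fractalkine. Siglech encodes a member of the Siglec family that signals through the adaptor DAP12. Fcrls encodes a scavenger-type receptor related to Fc receptors, and Tmem119 a single-pass membrane protein that is used to tell microglia from other macrophages. Selplg encodes PSGL-1, the ligand of the selectins, and Slc2a5 encodes GLUT5, a fructose carrier. Olfml3 and Sparc encode secreted proteins of the extracellular space. Crybb1 encodes a beta-crystallin, known as a structural protein of the lens cytoplasm, so the description as surface or secreted does not cover it.

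Values are log2 expression levels after robust multi-array averaging (RMA), and all differences are on that scale. The medians of the arrays over all genes lay between 5.73 and 5.84, and every member was at 7.29 or more on every array. Of 8 microglial marker genes 7 were measured, and the cells carried them throughout, with P2ry12, a purinergic receptor of microglia, at 11.48 to 12.26 and Csf1r, the receptor for colony stimulating factor 1, at 11.25 to 12.25. These markers were not all steady with age, and some rose from P7 to adult as given below. Ly6g, which the Gr1 gate removes, was at 2.83 to 4.56. The 2 adult replicate 1 arrays had the lowest mean correlations with the other arrays, 0.956 in cortex and 0.953 in corpus callosum, where the remaining arrays had 0.961 to 0.974. The P3 arrays carry another label prefix than the P7 and adult arrays, so age and array set cannot be told apart between P3 and P7. In RNA of sorted cells, fewer cells of a type and less RNA per cell cannot be told apart either.

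**Figure D1:**
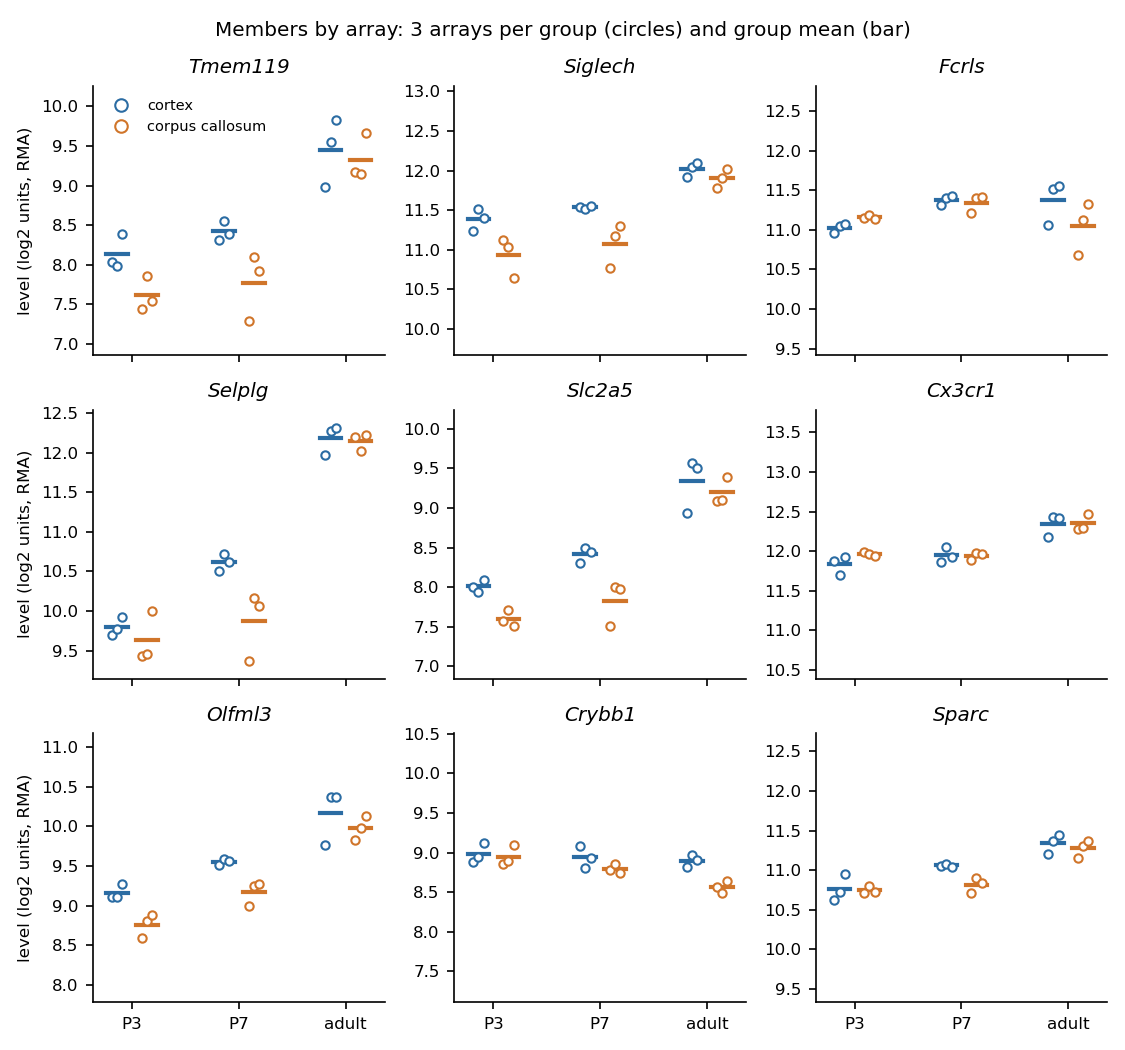
Expression level of each of the 9 genes in log2 units on every array (circles) with the mean of the 3 arrays of a group (bar), by age on the horizontal axis and region by colour. Every panel spans the same number of log2 units. Selplg rises most between P7 and adult, while Fcrls and Crybb1 keep within about the same band at all 3 ages.

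Between P7 and adulthood Tmem119, Siglech, Selplg, Slc2a5, Cx3cr1 and Olfml3 rose in both regions and Sparc rose in corpus callosum, while Fcrls and Crybb1 were called in neither. In cortex 6 of 9 members were higher in adults, where 10.2% of all genes were called in either direction and 4.05% were called higher (limma, adjusted p under 0.05). In corpus callosum 7 of 9 were higher, where 17.2% of all genes were called and 6.56% were called higher. No member was called lower in either region. The members were chosen with earlier results of these data known, so these counts are a description and not a test of the list. The median difference over the 9 members was 0.49 in cortex and 0.81 in corpus callosum, and over all genes it was 0.03 and 0.05. The arrays of the 2 ages did not overlap for 7 members in each region, all higher in adults, as for 13.7% of all genes in cortex and 17.7% in corpus callosum. In corpus callosum those of Crybb1 did not overlap either, lower in adults, as for 17% of all genes.

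Selplg, the selectin ligand, had the largest age difference of the 9 genes. In cortex it was at 9.70, 9.77 and 9.92 at P3, at 10.50, 10.72 and 10.62 at P7 and at 11.97, 12.27 and 12.32 in adults. In corpus callosum it was at 9.43, 9.46 and 10.004 at P3, at 9.37, 10.16 and 10.07 at P7 and at 12.19, 12.02 and 12.23 in adults. All 6 adult arrays lay above all 12 younger ones. Adult cortex was 2.97-fold above P7 cortex (1.57 ± 0.19, adjusted p 1.1e-05), and adult corpus callosum 4.85-fold above P7 corpus callosum (2.28 ± 0.19, adjusted p 8.84e-08). The second probe set of Selplg, which was not used for these values, followed the first over the 18 arrays (Pearson r = 0.998) and gave differences of 1.83 ± 0.23 in cortex (adjusted p 2.14e-05) and 2.47 ± 0.23 in corpus callosum (adjusted p 4.44e-07).

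Tmem119, the membrane marker of microglia, came next. Its cortical values were 8.03, 7.99 and 8.39 at P3, 8.31, 8.56 and 8.39 at P7 and 8.98, 9.55 and 9.83 in adults. Its values in corpus callosum were 7.45, 7.86 and 7.54 at P3, 7.29, 8.09 and 7.92 at P7 and 9.18, 9.14 and 9.66 in adults. The adult arrays stood above all younger arrays in both regions, and the lowest value of all was that of replicate 1 of corpus callosum at P7. The rise was 1.03 ± 0.22 in cortex (2.05-fold, adjusted p 0.00413) and 1.56 ± 0.22 in corpus callosum (2.95-fold, adjusted p 5.77e-05).

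Slc2a5, the fructose carrier, took a course close to that of Tmem119 (Pearson r = 0.99 over the 18 arrays). The cortical arrays had 7.998, 7.93 and 8.09 at P3, 8.30, 8.49 and 8.45 at P7 and 8.94, 9.57 and 9.50 in adults. The corpus callosum arrays had 7.57, 7.72 and 7.51 at P3, 7.51, 7.995 and 7.97 at P7 and 9.09, 9.11 and 9.39 in adults. Again no adult array overlapped with a younger one. The rise from P7 was 0.92 ± 0.16 in cortex (1.90-fold, adjusted p 0.000736) and 1.37 ± 0.16 in corpus callosum (2.59-fold, adjusted p 7.73e-06).

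Siglech, the DAP12-coupled Siglec family member, was at 10.64 or more on every array. Cortex gave 11.24, 11.51 and 11.40 at P3, 11.54, 11.51 and 11.55 at P7 and 11.92, 12.05 and 12.09 in adults. Corpus callosum gave 11.12, 11.04 and 10.64 at P3, 10.76, 11.17 and 11.29 at P7 and 11.78, 11.90 and 12.02 in adults. The adult arrays stood above all younger ones in both regions. Its rise from P7 was 0.49 ± 0.15 in cortex (1.40-fold, adjusted p 0.0394) and 0.82 ± 0.15 in corpus callosum (1.77-fold, adjusted p 0.000493). In cortex the call ended without any P7 array or without adult replicate 2 or 3 (adjusted p up to 0.127).

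Cx3cr1, the fractalkine receptor, had the smallest of the called differences in each region. On the cortical arrays it was at 11.88, 11.70 and 11.92 at P3, at 11.87, 12.05 and 11.92 at P7 and at 12.18, 12.43 and 12.42 in adults. On the corpus callosum arrays it was at 11.99, 11.96 and 11.93 at P3, at 11.89, 11.97 and 11.96 at P7 and at 12.28, 12.30 and 12.47 in adults. The adult arrays stood above all younger ones by a small margin, with the lowest adult value at 12.18 and the highest younger value at 12.05. The difference of the means from P7 to adult was 0.40 ± 0.11 in cortex (1.32-fold, adjusted p 0.024) and 0.41 ± 0.11 in corpus callosum (1.32-fold, adjusted p 0.0138). In cortex the call ended without P7 replicate 1 or 3, without adult replicate 2 or 3 or with the arrays of these 2 groups alone (adjusted p up to 0.106). In corpus callosum it ended without P7 replicate 1 or adult replicate 3 (adjusted p up to 0.0616).

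Of the secreted products, Olfml3 rose in both regions. Levels in cortex were 9.11, 9.10 and 9.27 at P3, 9.51, 9.59 and 9.56 at P7 and 9.76, 10.37 and 10.37 in adults. Levels in corpus callosum were 8.58, 8.81 and 8.88 at P3, 8.99, 9.24 and 9.28 at P7 and 9.82, 9.98 and 10.13 in adults. Its values lay higher at each later age in both regions, without overlap between any 2 ages. Only the step from P7 to adult was called, at 0.61 ± 0.15 in cortex (1.53-fold, adjusted p 0.0119) and 0.81 ± 0.15 in corpus callosum (1.75-fold, adjusted p 0.000861). The cortical call ended without adult replicate 2 or 3 or with the arrays of these 2 groups alone (adjusted p up to 0.0751).

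Sparc, a collagen-binding protein of the matrix, was called in corpus callosum alone. In the cortex samples it was at 10.62, 10.72 and 10.96 at P3, at 11.06, 11.08 and 11.05 at P7 and at 11.21, 11.37 and 11.44 in adults. In the corpus callosum samples it was at 10.72, 10.80 and 10.72 at P3, at 10.72, 10.91 and 10.84 at P7 and at 11.15, 11.31 and 11.37 in adults. Adult and P7 arrays did not overlap in either region. The rise in corpus callosum was 0.46 ± 0.11 (1.37-fold, adjusted p 0.00794) and the difference in cortex 0.28 ± 0.11 (adjusted p 0.155). The difference between those age steps, 0.18 ± 0.16 (adjusted p 0.892), did not pass, so the step is not shown to differ between the regions. Quantile normalization repeated on the 18 arrays gave a cortical difference of 0.46, which was called.

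Fcrls and Crybb1 did not follow the other members. Fcrls in cortex was at 10.96, 11.05 and 11.07 at P3, at 11.31, 11.40 and 11.42 at P7 and at 11.06, 11.52 and 11.55 in adults. Callosal levels were 11.15, 11.18 and 11.14 at P3, 11.21, 11.41 and 11.41 at P7 and 10.68, 11.13 and 11.33 in adults. Adult and P7 arrays overlapped in both regions, with replicate 1 the lowest adult array in each. The difference was 0.00 in cortex (95% confidence interval -0.32 to 0.32, adjusted p 0.999) and -0.30 in corpus callosum (-0.62 to 0.02, adjusted p 0.212).

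Crybb1, the beta-crystallin, had the highest mean at P3 in each region. Cortical levels were 8.88, 8.95 and 9.12 at P3, 9.09, 8.80 and 8.94 at P7 and 8.81, 8.97 and 8.90 in adults. For corpus callosum the values were 8.86, 8.89 and 9.10 at P3, 8.79, 8.86 and 8.75 at P7 and 8.56, 8.50 and 8.64 in adults. The cortical arrays of the 3 ages overlapped, while the adult arrays of corpus callosum were the lowest of all 18. The difference from P7 to adult was -0.05 in cortex (95% confidence interval -0.28 to 0.19, adjusted p 0.893) and -0.23 in corpus callosum (-0.47 to 0.00, adjusted p 0.178).

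**Figure D2:**
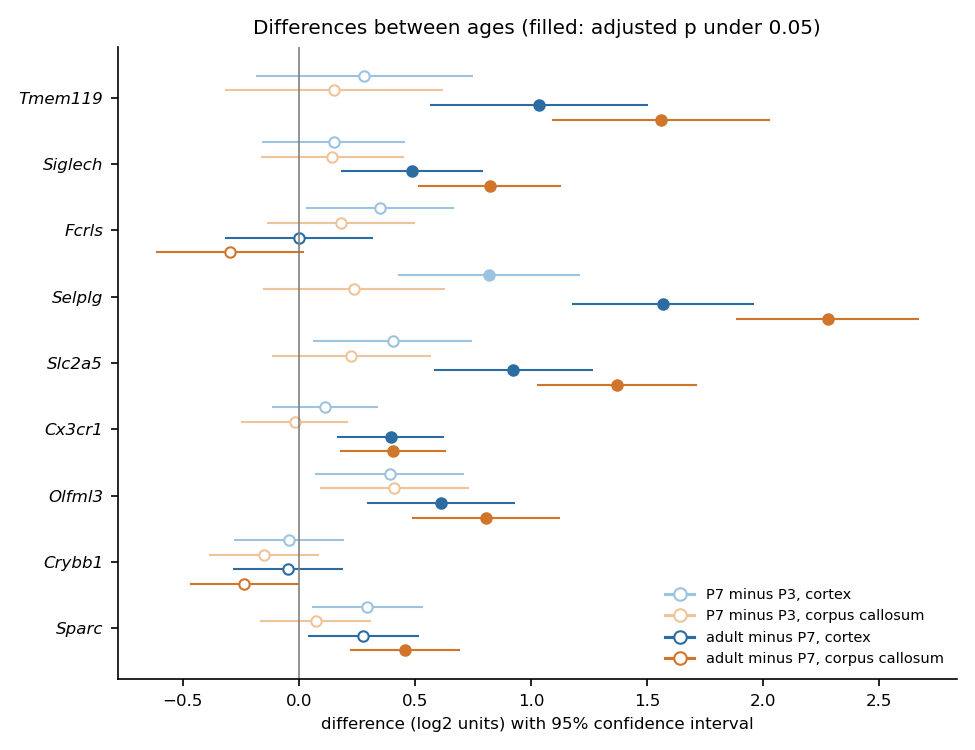
Difference between ages in log2 units (horizontal axis) with the 95% confidence interval of the model for each of the 9 genes, P7 minus P3 and adult minus P7 in each region. Filled circles passed an adjusted p of 0.05 over all genes; 6 members in cortex and 7 in corpus callosum passed from P7 to adult, and Selplg in cortex from P3 to P7.

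Other genes of the homeostatic program went the same way, though not all of them. Like the members, they were chosen with earlier results of these data known, so their rise is no independent support. Of 35 further homeostatic microglial genes 29 were measured; 11 rose from P7 to adult in cortex and 17 in corpus callosum, and none was called lower. Their median difference was 0.32 in cortex and 0.47 in corpus callosum. Upk1b, a uroplakin, rose by 4.32 ± 0.25 in cortex (adjusted p 1.06e-09) and by 3.92 ± 0.25 in corpus callosum (adjusted p 6.32e-09). Vsir, an inhibitory receptor of myeloid cells, rose by 1.16 ± 0.12 in cortex (adjusted p 2.86e-06) and Adgrg1, an adhesion receptor, by 1.53 ± 0.17 in corpus callosum (adjusted p 4.03e-06). Some of the microglial marker genes rose as well. Of the 7 measured, 3 were called higher in cortex (median 0.35) and 6 in corpus callosum (median 0.60), and none was called lower. Among them, the TGF-beta receptor gene Tgfbr1 rose by 0.83 ± 0.12 in cortex (adjusted p 0.000118) and by 1.40 ± 0.12 in corpus callosum (adjusted p 1.91e-07). Itgam rose by 0.61 ± 0.13 in cortex (adjusted p 0.00389) and by 0.84 ± 0.13 in corpus callosum (adjusted p 0.000123).

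Some relatives and partners of the members were called over the same step. The share called over all genes was 10.2% in cortex and 17.2% in corpus callosum. Of 10 measured selectins and enzymes that glycosylate PSGL-1, 3 rose from P7 to adult in each region. Among them were St3gal6, a sialyltransferase, at 0.88 ± 0.18 in cortex and 1.34 ± 0.18 in corpus callosum (adjusted p 0.00244 and 2.62e-05). Gcnt1, which builds the branched glycans that selectins bind, rose by 0.87 ± 0.14 and 0.94 ± 0.14 (adjusted p 0.000222 and 6.17e-05). Of 10 genes of the Siglec family with their adaptor, Siglece rose (1.13 ± 0.19, adjusted p 0.000233) and Cd22 fell (-0.53 ± 0.13, adjusted p 0.00708) in corpus callosum, and none was called in cortex.

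Among 5 relatives of Fcrls, Fcrl1 rose by 1.11 ± 0.16 in each region (adjusted p 0.000119 in cortex and 8.23e-05 in corpus callosum), a step that Fcrls did not show. Among 6 measured genes around the fractalkine axis, the chemokine receptor gene Ccrl2 rose by 1.39 ± 0.20 in cortex and by 1.24 ± 0.20 in corpus callosum, Ccr2 rose in both regions (0.77 and 0.44), and Ccr1 fell in cortex (-1.41 ± 0.30, adjusted p 0.00368). Of 12 crystallin genes other than Crybb1, Cryba4 fell in cortex (-0.59 ± 0.12, adjusted p 0.00342), and 3 fell in corpus callosum, with Cryba4 (-0.99 ± 0.12, adjusted p 1.5e-05) and Cryz (-0.90 ± 0.19, adjusted p 0.00201) the largest. Of 12 genes of hexose transport and use other than Slc2a5, the fructose kinase gene Khk fell in corpus callosum (-0.38 ± 0.12, adjusted p 0.0371). None of 8 measured olfactomedin genes or of 14 genes of the SPARC family and other matricellular proteins was called from P7 to adult.

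Genes of other lists were called over the same step, and their part in the result was not tested. Over all genes 10.2% were called in cortex and 17.2% in corpus callosum. The 22 measured axon tract and CD11c-type genes, which mark microglia found along developing tracts, went the opposite way, with 11 lower in cortex and 20 lower in corpus callosum and none higher. Immediate early genes, which respond to tissue handling as well as to stimulation, had 10 of 14 higher in cortex, and 9 higher and 1 lower in corpus callosum. Their mean level was 7.19 to 7.77 on the P7 arrays and 8.28 to 8.92 on the adult arrays. Of 10 measured genes of border-associated macrophages 4 fell in cortex and 6 in corpus callosum; the mannose receptor gene Mrc1 fell by 4.23 in cortex and fell by 4.44 in corpus callosum. Their mean level was 6.67 to 7.16 at P7 and 5.66 to 5.84 in adults. Mean levels of neutrophil genes were 4.64 to 5.57 at P7 and 4.54 to 4.92 in adults. Of 14 neuron genes 4 were lower in cortex, among them Gap43 (-1.56 ± 0.18), and 0 in corpus callosum. Of 10 astrocyte genes 2 were higher in cortex, the glutamate carrier gene Slc1a3 (1.79 ± 0.22) and the water channel gene Aqp4 (0.73 ± 0.21), and Slc1a3 was higher in corpus callosum too (0.96 ± 0.22). Of 9 measured monocyte genes 1 was higher and 2 were lower in each region, with Ccr2 the higher one and the lysozyme gene Lyz2 lower in both (-0.82 ± 0.19 in cortex and -1.22 ± 0.19 in corpus callosum). Of 8 measured lymphocyte genes 1 was lower in each region, the B lymphocyte gene Cd79b (-0.63 in cortex and -0.98 in corpus callosum). The medians of that list were -0.10 and 0.03. Of 13 endothelial and mural genes 1 was higher in cortex, Pecam1 (1.06), and 0 were called in corpus callosum. Of 9 measured oligodendrocyte genes 1 was lower in corpus callosum, the myelin gene Mbp (-0.33), where the list median was 0.09.

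**Figure D3:**
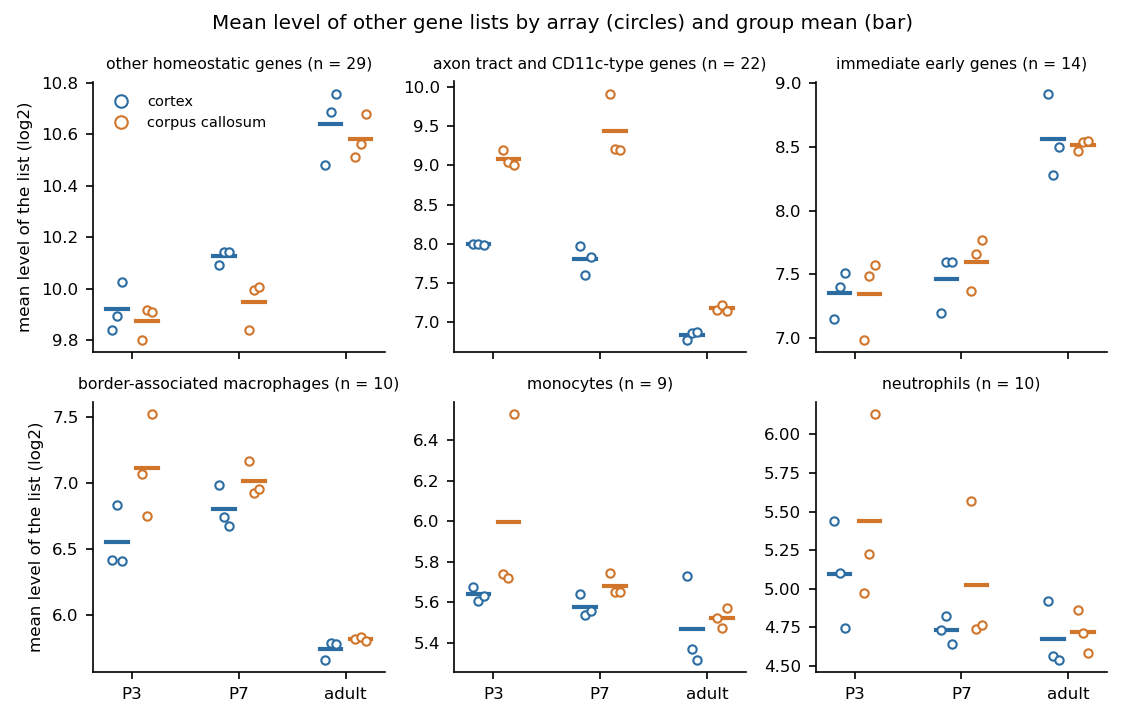
Mean level in log2 units of 6 lists of other genes on every array (circles) with the group mean (bar), by age and region; n is the number of measured genes of a list. The other homeostatic genes and the immediate early genes stand higher on adult arrays, the axon tract and border macrophage genes lower, and corpus callosum replicate 3 at P3 has the highest neutrophil mean (6.13).

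Between P3 and P7 fewer members were called. In cortex 1 of 9 was called, where 0.884% of all genes were called and 0.28% were called higher; in corpus callosum none was, where 0.739% of all genes were. The called gene was Selplg, at 0.82 ± 0.19 (1.76-fold, adjusted p 0.0463). That call ended without any of the 6 arrays and with the mean of both probe sets, and the second probe set gave 0.92 ± 0.23 (adjusted p 0.0673). In cortex 5 members had an unadjusted p under 0.05. The share of all genes under that unadjusted threshold is not given, here or in the comparisons below. Such counts of members therefore have no background to be read against. P3 and P7 arrays of cortex did not overlap for 6 members, all higher at P7, as for 10.9% of all genes: Siglech, Fcrls, Selplg, Slc2a5, Olfml3 and Sparc. In corpus callosum this held for 2, Fcrls and Olfml3, as for 9.43% of all genes. The median difference of the members was 0.30 in cortex and 0.15 in corpus callosum, against 0.01 and 0.00 for all genes. Of the other homeostatic genes, Golm1, a Golgi membrane protein, was the 1 of 29 that rose, in cortex (0.61 ± 0.13, adjusted p 0.0402) and in corpus callosum (0.61 ± 0.13, adjusted p 0.0445). Neuron genes moved over the same step, with 4 of 14 lower in cortex and 2 in corpus callosum, among them Meg3 (-1.83 ± 0.21) in cortex and Map2 (-0.98 ± 0.18) in corpus callosum. Their mean level in corpus callosum was 5.45 to 5.91 at P3 and 5.42 to 5.49 at P7, and in cortex it was 5.93 to 6.18 at P3 and 5.603 at most at P7. Ptprz1, a gene of oligodendrocyte precursors, fell by 2.92 in cortex and fell by 2.56 in corpus callosum, and the monocyte gene Vcan fell by 0.97 in cortex. The part of these in the members' values was not tested.

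No member was called between the regions at any age. At P7 all 9 members lay lower in corpus callosum than in cortex, but none passed the adjustment over all genes, of which 0.451% did. Their median difference was -0.38, where all genes had 0.00. An unadjusted p under 0.05 was found for 6 of the members, without the share of all genes for comparison. The arrays of the regions did not overlap for 6 members, lower in corpus callosum, as for 7.76% of all genes. Selplg stood at 10.62 ± 0.11 (SD, n = 3) in cortex and 9.87 ± 0.43 in corpus callosum, a difference of -0.75 ± 0.19 (adjusted p 0.122). Slc2a5 differed by -0.59 ± 0.16 (adjusted p 0.207), Tmem119 by -0.65 ± 0.22 (adjusted p 0.394) and Siglech by -0.46 ± 0.15 (adjusted p 0.329). The secreted products differed by -0.38 ± 0.15 for Olfml3 (adjusted p 0.563) and -0.24 ± 0.11 for Sparc (adjusted p 0.713).

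The remaining 3 members had smaller differences at P7. For Cx3cr1 the difference was 0.00 with a 95% confidence interval of -0.23 to 0.23, for Fcrls -0.03 (-0.35 to 0.28) and for Crybb1 -0.14 (-0.38 to 0.09). Replicate 1 of corpus callosum at P7 had the lowest value of its group for 8 of 9 members and lay on average 0.23 log2 units under the group means. It also had the highest mean of its group for the axon tract and CD11c-type genes, 9.91 against 9.19 and 9.21, and for neutrophil genes, 5.57 against 4.74 and 4.76; the part of these in the result was not tested. Without that array the differences were -0.50 for Selplg, -0.43 for Slc2a5, -0.41 for Tmem119 and -0.30 for Siglech. Of the axon tract and CD11c-type genes 16 of 22 were higher in corpus callosum at P7, and of the other homeostatic genes 0 of 29 was called (median -0.16). Of 10 measured genes of border-associated macrophages 1 was higher, Folr2 (1.95 ± 0.22, adjusted p 9.05e-05). Of 14 immediate early genes 1 was higher, Egr2 (1.19 ± 0.20, adjusted p 0.00658). The part of these lists in the members' values was not tested. Cd22 was the relative of Siglech that was called, 0.65 ± 0.13 higher in corpus callosum (adjusted p 0.0288).

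At P3 none of the 9 members was called between the regions, where 0.505% of all genes were. Of the members 7 lay lower in corpus callosum, with a median of -0.17 over the 9 against 0.01 over all genes, and 4 had an unadjusted p under 0.05. The arrays did not overlap for 4 members that were lower in corpus callosum, as for 6.67% of all genes. These were Tmem119 (-0.52 ± 0.22, adjusted p 0.332), Siglech (-0.45 ± 0.15, adjusted p 0.182), Slc2a5 (-0.41 ± 0.16, adjusted p 0.29) and Olfml3 (-0.40 ± 0.15, adjusted p 0.255). Fcrls (0.13 ± 0.15, adjusted p 0.783) and Cx3cr1 (0.13 ± 0.11, adjusted p 0.678) were separated the other way, higher in corpus callosum on all 3 arrays, as for 9.17% of all genes. Selplg, with -0.17 ± 0.19 (adjusted p 0.776), overlapped between the regions. Replicate 3 of corpus callosum had the highest P3 value of Selplg, 10.004, and the lowest of Siglech, 10.64. Without that array the regional difference of Selplg was -0.35 and that of Siglech was -0.31. That array also had the highest mean of all 18 for border-associated macrophage (7.52), monocyte (6.53) and neutrophil genes (6.13), and their part in these values was not tested. Of the 22 axon tract and CD11c-type genes 10 were higher in corpus callosum at P3 (median 0.86). Of 14 neuron genes 2 were lower, Gap43 (-1.27 ± 0.18, adjusted p 0.00406) and Meg3 (-1.32 ± 0.21, adjusted p 0.0074). The 1 called monocyte gene, Lyz2, was higher (0.90 ± 0.19, adjusted p 0.0384). Border-associated macrophages had 2 of 10 measured genes called, both with the larger value in corpus callosum. Ms4a7 differed by 1.53 ± 0.29 and Folr2 by 1.63 ± 0.22, at adjusted p values of 0.0201 and 0.00187. The part of these lists in the members' values was not tested either.

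In adults the regional differences of the members were mostly small. None of the 9 members was called, where 0.00451% of all genes were, that is 1 gene, Lpl, which encodes lipoprotein lipase and is no member. The members' median was -0.13, against 0.01 over all genes. An unadjusted p under 0.05 was found for 2 members, Fcrls (-0.33 ± 0.15, adjusted p 0.572) and Crybb1 (-0.33 ± 0.11, adjusted p 0.466). Crybb1 was the 1 member whose arrays did not overlap, lower in corpus callosum, as for 6.07% of all genes. Tmem119 differed by -0.13 (95% confidence interval -0.60 to 0.34), Selplg by -0.04 (-0.43 to 0.35), Slc2a5 by -0.14 (-0.48 to 0.20) and Siglech by -0.12 (-0.43 to 0.19).

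**Figure D4:**
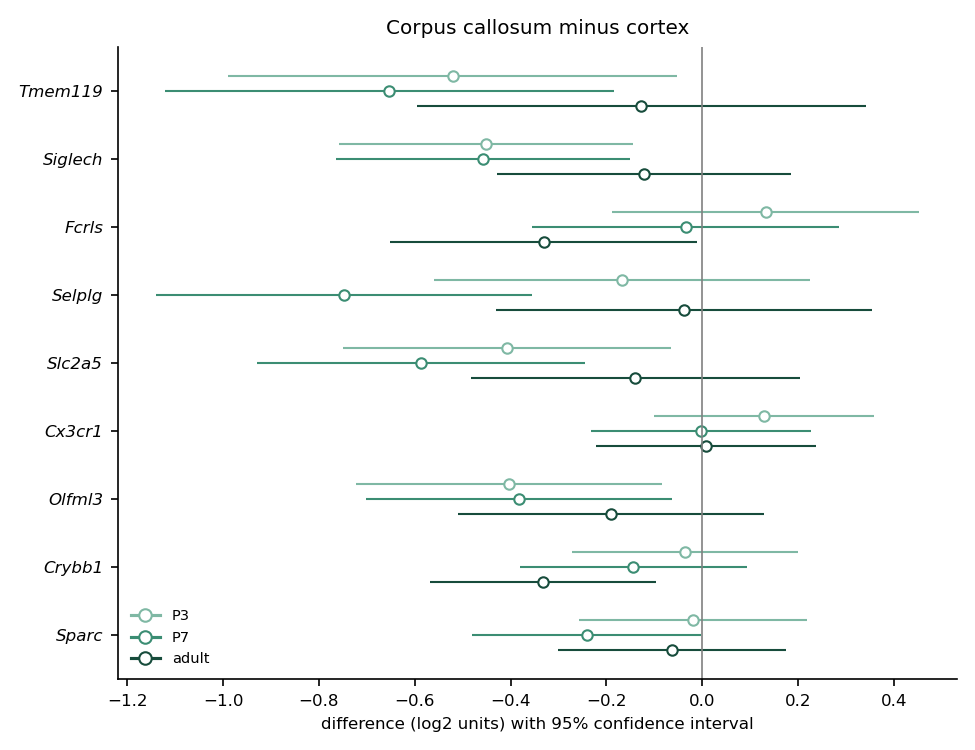
Corpus callosum minus cortex in log2 units (horizontal axis) with the 95% confidence interval of the model for each of the 9 genes at P3, at P7 and in adults. At P7 all 9 values lie below 0, from -0.75 for Selplg to 0.00 for Cx3cr1; in adults 8 do, and no value at any age passed an adjusted p of 0.05.

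Whether the regional difference changed with age was tested directly, and no member passed. From P7 to adult 0.203% of all genes were called, and 7 of 9 members lay above 0, that is, corpus callosum lay less far below cortex, or further above it, in adults. The median was 0.19 over the members and 0.01 over all genes, and the share of all genes above 0 is not given. Cx3cr1, 1 of these 7, was at 0.01 ± 0.15. Selplg had 0.71 ± 0.26 (95% confidence interval 0.15 to 1.26, adjusted p 0.528), Tmem119 0.53 ± 0.32 (adjusted p 0.774) and Slc2a5 0.45 ± 0.23 (adjusted p 0.726). From P3 to P7, 0% of all genes were called, and Selplg had -0.58 ± 0.26 (adjusted p 0.868). From P3 to adult 0.18% were called, and Fcrls had -0.46 ± 0.22 (adjusted p 0.35). In each of these 3 comparisons 1 member had an unadjusted p under 0.05, the one with the value just given first or alone.

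The order of the 6 groups was alike for 6 of the rising genes. Tmem119, Siglech, Selplg, Slc2a5, Olfml3 and Sparc had adult cortex first, adult corpus callosum second and P7 cortex next, and P3 corpus callosum last. Arrays of the 2 adult groups overlapped for each of them, while those of adult corpus callosum and P7 cortex did not. Below P7 cortex the order was less firm. The arrays of P7 corpus callosum and P3 cortex, neighbours in the order of all 6 genes, overlapped throughout. Cx3cr1 had adult corpus callosum first, 0.01 above adult cortex and within the spread, and its 4 younger groups lay between 11.83 and 11.96. The means of Fcrls ran from 11.03 in P3 cortex to 11.38 in adult cortex, and those of Crybb1 from 8.57 in adult corpus callosum to 8.98 in P3 cortex.

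Across the 18 arrays the 7 genes that rose in corpus callosum ran closely together. Their 21 pairs had Pearson correlations of 0.74 to 0.99 with a median of 0.94. These are given as a description, because the arrays fall into ages and share their normalization. The 7 genes were also grouped by their rise on these same arrays, so high correlations follow in part from that choice. After the group means were taken away the same pairs had 0.21 to 0.92 with a median of 0.67. Tmem119 and Slc2a5 had 0.99 over the arrays and 0.92 within groups. Fcrls had 0.13 to 0.34 with these 7 genes over the arrays but 0.37 to 0.82 within groups, with a median of 0.72. Crybb1 had -0.50 to -0.32 over the arrays and -0.14 to 0.45 within groups.

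Within groups, the arrays numbered 1 stood low for many members at once. Each lay on average under its group's means, and each was the lowest of its group for 5 to 9 of the 9 members. Replicate 1 of adult cortex was the lowest of its group for 9 of 9 members, on average 0.26 log2 units under the group means, and replicate 1 of adult corpus callosum for 6 of 9, on average 0.12 under. These are the arrays with the lowest correlations to all others. Without both of them the members called from P7 to adult numbered 6 in cortex and 7 in corpus callosum, as with them.

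**Figure D5:**
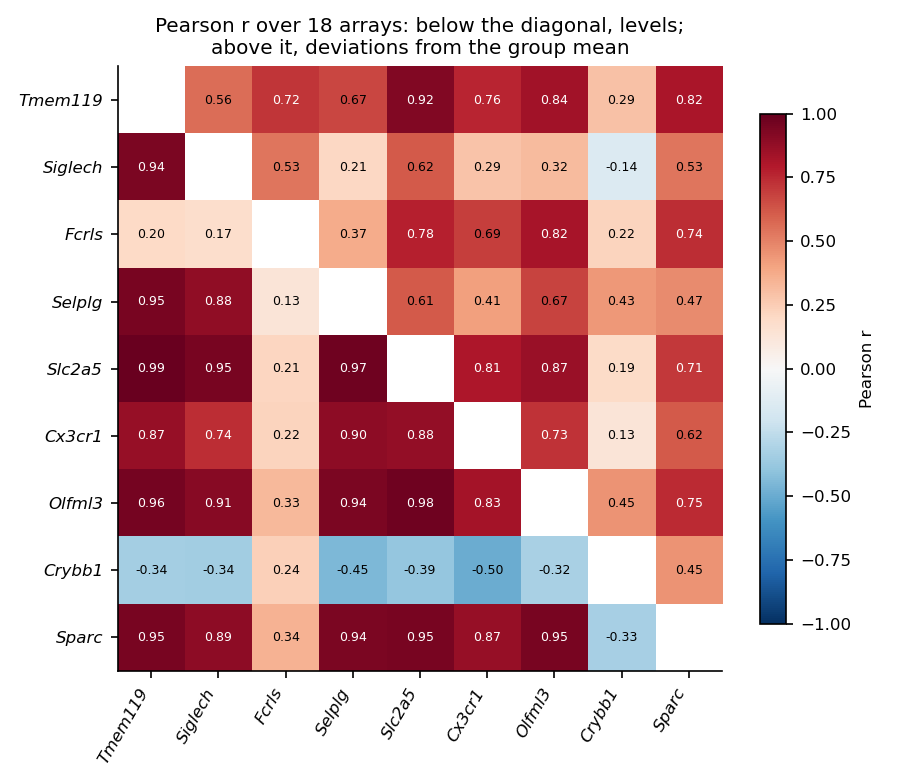
Pearson correlation over the 18 arrays for each pair of the 9 genes, of the levels below the diagonal and of the deviations from the group means above it, on a colour scale from -1 to 1. Below the diagonal Fcrls and Crybb1 stand apart from the other 7 genes, which were grouped by their rise on these same arrays. Above it Fcrls has 0.37 to 0.82 with those 7.

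For each member the 3 genes with the most similar course over the 18 arrays were looked up among all 22180. Members were found there for Tmem119 (Slc2a5, 0.99, then Dock10 and Lpcat2, both 0.98), for Slc2a5 (Tmem119, 0.99, then Sting1 and Tjp1, both 0.98) and for Olfml3 (Slc2a5, 0.98, then Asap3 and Tmem119, both 0.96). Selplg was closest to Capn3, Pik3r1 and Soga1 (all 0.98), Siglech to Ivns1abp, Dock10 and Arap3 (all 0.96), Cx3cr1 to Plxdc1, Uba7 and Dennd1c (all 0.96) and Sparc to Pip4k2a (0.98), Mtus1 (0.97) and Epb41l2 (0.96). The closest genes were less close for Fcrls, with Tram1 and Ufl1 (both 0.88) and Dnajc3 (0.87), and for Crybb1, with Mrps9 (0.87), Nktr (0.85) and Khk (0.83).

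Tmem119 and Selplg, the members with the largest rises, are neighbours on chromosome 5 in the RefSeq gene table of GRCm38.p6, with 2 genes and 0 protein-coding genes between them. The RefSeq promoter table of the same build held windows for 7 of the 9 members, and the 250 bases before the start that this table uses were searched on both strands for 3 short motifs of factors known to act in microglia. A SMAD motif (CAGACA or TGTCTG) was found for 5 of the 7, Siglech, Fcrls, Slc2a5, Crybb1 and Sparc, and in 17.1% of 32851 windows of this length. A RUNX motif (TGTGGT or ACCACA) was found for 3, Siglech, Fcrls and Cx3cr1, and in 14% of windows. A PU.1 motif (GAGGAA or TTCCTC) was found for Fcrls alone, and in 23.3% of windows. The windows of 2 genes that rose, Siglech and Cx3cr1, and of the 2 that did not, Fcrls and Crybb1, are shown to set both kinds side by side, 5′ to 3′ on the strand of the gene and ending at the start that the promoter table uses, with the SMAD motif in capitals.
Siglech: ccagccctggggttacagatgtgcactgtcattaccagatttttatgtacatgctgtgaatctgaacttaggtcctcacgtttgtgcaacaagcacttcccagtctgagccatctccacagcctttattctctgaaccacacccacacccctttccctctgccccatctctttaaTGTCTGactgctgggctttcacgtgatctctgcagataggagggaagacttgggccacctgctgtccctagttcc
Cx3cr1: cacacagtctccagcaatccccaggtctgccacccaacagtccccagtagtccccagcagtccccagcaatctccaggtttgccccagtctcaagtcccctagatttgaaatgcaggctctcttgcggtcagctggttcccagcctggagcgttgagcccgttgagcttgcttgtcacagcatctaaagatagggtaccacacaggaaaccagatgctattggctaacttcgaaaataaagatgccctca
Fcrls: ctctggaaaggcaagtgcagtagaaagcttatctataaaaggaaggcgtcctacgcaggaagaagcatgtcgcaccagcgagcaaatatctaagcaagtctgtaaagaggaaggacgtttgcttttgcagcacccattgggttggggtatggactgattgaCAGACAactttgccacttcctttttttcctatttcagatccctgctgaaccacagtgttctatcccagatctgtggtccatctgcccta
Crybb1: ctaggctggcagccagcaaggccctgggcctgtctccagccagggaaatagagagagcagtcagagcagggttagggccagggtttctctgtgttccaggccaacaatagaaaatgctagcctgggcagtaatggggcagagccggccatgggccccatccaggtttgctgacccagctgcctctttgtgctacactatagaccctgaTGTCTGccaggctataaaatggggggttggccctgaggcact
They lie at chr7:55767934-55768183 (plus strand), chr9:120068297-120068546 (minus strand), chr3:87263525-87263774 (minus strand) and chr5:112255570-112255819 (plus strand) of GRCm38.p6. That start is the start of the RefSeq gene table for Cx3cr1, but lies 30 bases further into the gene for Siglech, 241 for Fcrls and 1257 for Crybb1. The window of Crybb1 and nearly all of that of Fcrls therefore lie inside the gene as the gene table bounds it. Counted to the start of the promoter table, the SMAD motif began 75 bases before it for Siglech, 89 for Fcrls and 42 for Crybb1. It was thus found in genes that rose with age and in both that did not. A match of 6 letters is a description of the window and not a binding site.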

How the data were processed

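The deposited log2 values of 18 Affymetrix arrays had been made by the authors with robust multi-array averaging (RMA), per the submitters' processing notes. Its version, settings and logarithm base and the build of the annotation were not given in the sources used here; base 2 was inferred from the range of 0.87 to 13.8. RMA hides changes of total RNA and compresses large differences. Total RNA had been amplified and biotin-labelled with NuGen kits, per the labels' protocols.

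Of 41345 probe sets, 23521 had 1 gene symbol in GEO's platform annotation, 1814 several and 16010 none. The brightest probe set stood for a gene, which left 22180 genes. A mean per group was fitted to all 18 arrays with limma 3.58.1 in R 4.3.3 (lmFit, contrasts.fit, eBayes without trend, 12 residual degrees of freedom). Tests in the 10 comparisons were two-sided and adjusted over all genes after Benjamini and Hochberg; every adjusted p comes from this fit unless another setting is named, and a gene was called under 0.05. Values after ± are standard errors of differences unless given as SD. With 3 arrays against 3, an exact permutation test cannot go below 0.1, and the number of arrays limits the precision. The script was tested on simulated data.

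Named were the 9 members, up to 2 called genes per direction of each of 21 other lists, those with the largest differences, and the 3 genes most correlated with each member. Members and lists were chosen with earlier results of these data known. Lists are described by counts and medians, with no test. Same-numbered arrays of the regions deviated together with correlations of 0.02 to 0.30, and most cortex arrays were closest to their own number. Not all correlations were over 0.1 and the labels state no pairing, so the main fit did not take the numbers as pairs. The replicate block below takes them into account. Alternatives were quantile normalization, the mean of probe sets, a filter on dim genes, an intensity trend, array weights, fits on the groups compared, a replicate block and leaving out single arrays. Figures were drawn with matplotlib 3.10.9 in Python 3.11.15.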

Additional observations from a re-analysis of the deposited data

How the results depend on the processing

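Each of the 9 genes' 90 differences was recomputed under 13 to 20 other settings. No called difference of a member changed direction. From P7 to adult, Tmem119, Selplg and Slc2a5 in cortex and every called member but Cx3cr1 in corpus callosum passed under all 14 alternatives. With the replicate block the members called numbered 6 in cortex and 7 in corpus callosum from P7 to adult, 1 from P3 to P7 in cortex and 0 elsewhere, so it changed no call of a member. Same-numbered arrays had correlations of 0.02 to 0.30. Every cortex array but P3 replicate 2 and adult replicate 2 was closest to the corpus callosum array of its own number. The 1 member called from P3 to P7 in cortex became 0 with the mean of all probe sets and without any single array (lowest and highest 0). At P7, 1 member was called between the regions when only genes above the median level were tested, which leaves fewer genes to adjust over (Selplg), and 2 with array weights (Selplg, adjusted p 0.026, and Slc2a5, 0.033); the cause of the latter was not tested. From P7 to adult in cortex, leaving out single arrays gave 3 to 6 members; without cortex adult replicate 2 or 3 it was 3.

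The direction turned in 21 of the 90 differences, none of them called; their largest size was 0.19, and the cause was not tested. With repeated quantile normalization Cx3cr1 between adult regions was -0.0051, Crybb1 from P7 to adult in cortex 0.029 and Sparc from P3 to P7 in corpus callosum -0.0018. With array weights the first 2 were -0.049 and 0.00997, the change of the regional difference from P3 to P7 was 0.0065 for Siglech, and that from P7 to adult -0.045 for Cx3cr1. Without both adult replicate 1 arrays, a choice made after seeing the data, Cx3cr1 between adult regions was -0.040, its change of the regional difference from P7 to adult -0.036, and that of Selplg from P3 to adult -0.0032. Leaving out single arrays gave these ranges. Between the regions at P3 it was -0.11 to 0.033 for Crybb1 and -0.094 to 0.075 for Sparc, at P7 -0.043 to 0.047 for Cx3cr1 and -0.068 to 0.031 for Fcrls, and in adults -0.075 to 0.052 for Cx3cr1, -0.15 to 0.028 for Selplg and -0.36 to 0.059 for Tmem119. From P3 to P7 it was -0.11 to 0.027 for Crybb1 in cortex, and in corpus callosum -0.033 to 0.0070 for Cx3cr1, -0.0010 to 0.30 for Siglech and -0.013 to 0.39 for Tmem119. From P7 to adult in cortex it was -0.11 to 0.026 for Crybb1 and -0.086 to 0.16 for Fcrls. For the change of the regional difference it was, from P3 to P7, -0.066 to 0.11 for Olfml3, -0.15 to 0.15 for Siglech and -0.30 to 0.11 for Tmem119; from P3 to adult -0.14 to 0.031 for Sparc; and from P7 to adult -0.072 to 0.055 for Cx3cr1 and -0.0092 to 0.30 for Olfml3.

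Counts over all genes moved more. Between the regions 112 genes at P3 became 16 to 273 and 100 at P7 became 40 to 236, with 1 in adults becoming 1 to 3. From P7 to adult 2264 in cortex became 1567 to 3861, and from P3 to P7 196 in cortex became 72 to 644 and 164 in corpus callosum 5 to 506. Of the changes of the regional difference, 0 became up to 1, 45 became 10 to 105 and 40 became 0 to 202. Levels carry no test of signal over background, and 3 arrays a group limit every interval.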
